A study of Mus musculus with 6 samples.

Results

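Nuclear genes for the subunits of the oxidative phosphorylation (OXPHOS) machinery were examined in cultured mouse cerebellar granule cells (GCs) after knockdown (KD) of YTHDF2, a protein that binds mRNA carrying the m6A mark. The genes were chosen by symbol only. They were the protein-coding genes on nuclear chromosomes of the GRCm38 annotation named Nduf with a letter a, b, c, s or v and a number, Sdha to Sdhd, Uqcr, Cox4 to Cox8 with a letter a, b or c, or Atp5. The annotation held 83 such genes, and 82 of them were among the 53421 genes of the count table. By their prefix 37 belonged to complex I, 4 to complex II, 8 to complex III, 16 to complex IV and 17 to complex V. Cox4i1, Cox4i2, Cyc1 and Ndufab1 also encode subunits or an associated carrier protein but are not caught by these prefixes. Ndufa4 was kept with complex I by its name, although its protein is now regarded as a part of complex IV, and Cox7a2l encodes a factor of respiratory supercomplexes.

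The GCs came from C57BL/6 mice, at postnatal day 8 by the labels of the samples. Both groups were infected with lentivirus and selected with puromycin, as the methods of the study state. In 3 libraries, shYthdf2, the virus delivered a hairpin that targets Ythdf2, and in the other 3, shCtrl, a hairpin without that target. Within a group the numbers are 1, 2 and 4. Library names refer to a single hairpin, number 3, so KD of YTHDF2 and other effects of that hairpin cannot be told apart. The labels contradict each other. The descriptions and column names mark one set of 3 libraries as KD and the other as control, whereas the titles and the genotype field mark them the opposite way round. The descriptions were followed here. Ythdf2 had 619, 841 and 629 normalized counts in the libraries taken as shCtrl and 501, 403 and 501 in those taken as shYthdf2. The groups did not overlap, and the log2 fold change of Ythdf2 was −0.57 (SE 0.16) with an edgeR adjusted p of 0.125. If the titles were right instead, every direction given below would be inverted.

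OXPHOS takes place in the inner mitochondrial membrane. Complexes I and II feed electrons from NADH and succinate into ubiquinone, complex III passes them to cytochrome c, and complex IV hands them to oxygen. Complexes I, III and IV pump protons, and complex V, the ATP synthase, lets the protons flow back and makes ATP. Most subunits are encoded in the nucleus, translated in the cytosol and imported, while a small set of core subunits of complexes I, III, IV and V is encoded by mitochondrial DNA. Neurons use most of their ATP to restore ion gradients, and the genes for nuclear subunits are known to be driven in part by NRF1, by the ETS family factor GABP (also called NRF2) and by YY1.

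Promoter sequences are shown here because motifs of these factors are a feature that the choice by symbol did not use. Of the 82 genes 68 were matched to a promoter table of RefSeq (GRCm38.p6), 2 of them by an older symbol, which gave 73 windows of 300 bases from 250 before to 50 after a transcription start. The other 14 were not matched. The letters searched on both strands were GCGCA, any base and GCGC in a row for NRF1, CCGGAAG for ETS factors and AAGATGGCG for YY1, and the ETS and YY1 letters can share AAG. The NRF1 letters were in 24.7% of the windows of the subunit genes, in 8.96% of the 14786 windows of all genes tested and in 4.6% of all 32851 windows. The ETS letters were in 21.9%, 15.6% and 8.86% of the same windows, and the YY1 letters in 9.59%, 2.6% and 1.4%. The median GC content was 57.3% in the windows of the subunit genes and 60.7% in those of all genes tested. A match of letters is a description and not evidence of binding. Up to 150 bases before the outermost start are printed for 5 genes that return below: Sdhd, with NRF1 and ETS letters, Cox6a1, with NRF1 letters at 2 places, Cox6b1 and Cox6b2, a pair of paralogs, and Ndufa10, which holds none of the letters in its window. The windows of Cox6a1 and Cox6b1 also hold ETS letters, at places that are not printed. The gene as annotated in GENCODE began further out than the RefSeq start by 23 bases for Cox6a1, 37 for Cox6b1 and 102 for Ndufa10, and those bases are not printed. All 5 are read on the minus strand, and capitals mark NRF1 and ETS letters on either strand.
Sdhd, chr9:50603850-50603999: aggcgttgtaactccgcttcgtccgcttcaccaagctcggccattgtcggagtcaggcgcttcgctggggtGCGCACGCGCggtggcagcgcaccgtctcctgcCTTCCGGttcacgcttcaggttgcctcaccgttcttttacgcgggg
Cox6a1, chr5:115348982-115349131: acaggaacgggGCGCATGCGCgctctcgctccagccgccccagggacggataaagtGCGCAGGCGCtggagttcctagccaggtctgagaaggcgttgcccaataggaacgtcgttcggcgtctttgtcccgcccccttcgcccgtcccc
Cox6b1, chr7:30626152-30626301: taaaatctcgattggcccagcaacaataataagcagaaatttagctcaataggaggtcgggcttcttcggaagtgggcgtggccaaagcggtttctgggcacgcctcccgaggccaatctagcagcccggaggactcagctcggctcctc
Cox6b2, chr7:4753095-4753244: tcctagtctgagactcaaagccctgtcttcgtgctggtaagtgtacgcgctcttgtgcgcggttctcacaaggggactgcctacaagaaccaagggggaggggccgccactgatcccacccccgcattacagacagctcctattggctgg
Ndufa10, chr1:92473861-92474008: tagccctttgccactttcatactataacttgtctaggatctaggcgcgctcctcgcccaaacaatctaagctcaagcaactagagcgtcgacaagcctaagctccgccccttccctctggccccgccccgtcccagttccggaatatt

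The 6 libraries held 17246821 to 21546595 counts. Libraries 1 and 4 of a group lay close to each other, and library 2 stood apart. Over all genes tested, the median squared difference between libraries 1 and 4, as a multiple of what counting error alone gives, was 1.6 in shCtrl and 1.62 in shYthdf2, against 11.8 to 17.5 for the pairs that include library 2. The methods speak of biological replicates, but the labels do not say which libraries came from separate cultures, so p-values measure the spread between these libraries, which may in part be technical. The 10 markers of granule cells were all expressed, with summed normalized counts of 193762 to 196161 in shCtrl and 185115 to 197872 in shYthdf2. Of these markers 5 were lower and 5 higher in the fit. Without overlap of the groups, Neurod1, Barhl1 and Cbln1 were lower and Reln and Rbfox3 higher, and 0 passed the adjusted threshold. Markers of other cells were also present. All tested markers had higher fitted levels in shYthdf2 for progenitors (5 of 5), astrocytes (5 of 5) and oligodendrocytes (6 of 6). The same held for the tested markers of microglia (4 of 4) and of vascular cells and fibroblasts (5 of 5). Of all these markers, 0 passed the adjusted threshold.

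The subunit genes were highly expressed. Levels are given as library-scaled counts (CPM) per kb of exon, which allows genes of unequal length to be compared. Of the 82 genes, 68 exceeded 10 CPM per kb in shCtrl GCs and 6 exceeded 100. The highest was Cox6a1, the ubiquitous form of subunit 6a of cytochrome c oxidase, at 526 ± 62.0 (SD, n = 3). Cox8a followed at 273 ± 63.9. The α and β subunits of the ATP synthase came next, Atp5a1 at 254 ± 56.7 and Atp5b at 224 ± 42.8. These last 3 did not differ beyond their spread. Their order rests on the length used: per kb of the longest transcript Atp5b was at 494, Cox8a at 307 and Atp5a1 at 298, while Cox6a1 stayed the highest at 595. In complex I Ndufa4 led at 109 ± 34.3. In complex III Uqcr11 at 77.9 ± 26.8 and Uqcr10 at 73.1 ± 22.8, and in complex II Sdhd at 51.5 ± 10.6 and Sdha at 47.8 ± 5.33, lay within each other's spread, and both orders turned per kb of the longest transcript. Medians of the complexes in shCtrl were 29.5 CPM per kb for complex I, 41.2 for complex II, 49.4 for complex III, 29.6 for complex IV and 44.3 for complex V.

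**Figure D1:**
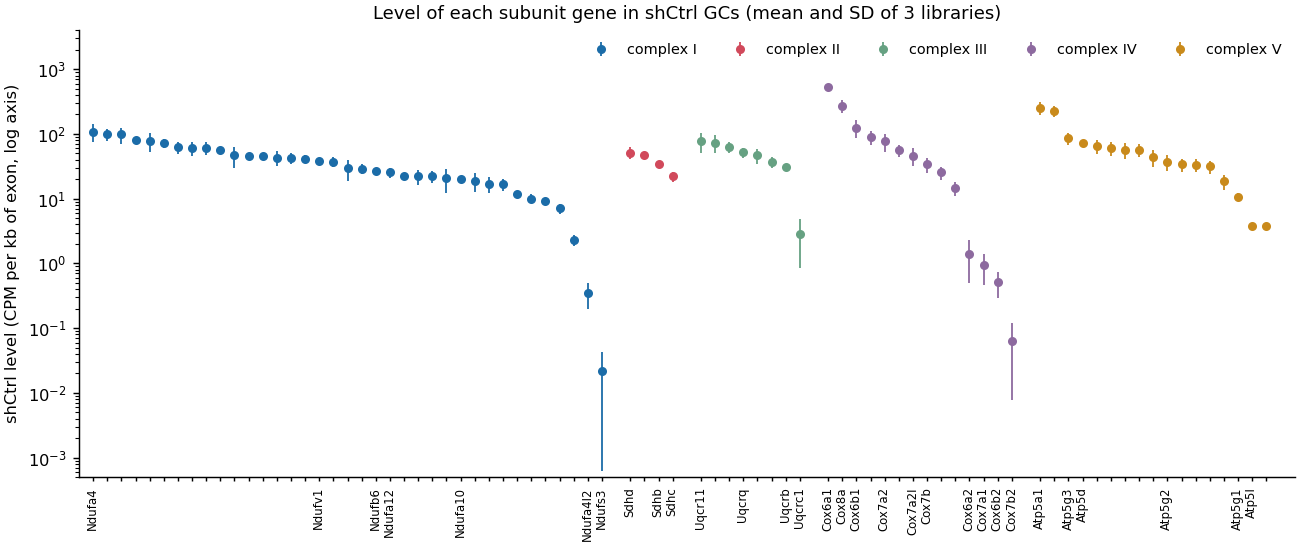
Level of each subunit gene in shCtrl GCs in CPM per kb of exon on a log axis, grouped by complex and ordered by level; points are means and bars SDs of 3 libraries, and symbols are given for the genes named by rule. The 80 genes with a count in shCtrl are drawn, and they range from 526 for Cox6a1 to 0.0221 for Ndufs3.

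At the low end stood the tissue-restricted isoforms and a few subunits that every respiring cell needs. Cox6a2, Cox7a1 and Cox8b, which replace their ubiquitous partners in heart and skeletal muscle, had 1.39, 0.935 and 0 CPM per kb in shCtrl. The testis forms Cox6b2 and Cox7b2 had 0.519 and 0.0644, and Cox8c had 0 counts in all 6 libraries. Ndufa4l2, a paralog of Ndufa4 that is induced by hypoxia, had 0.350. Ndufs3, a core subunit of complex I, had deposited counts of 2, 1 and 0 in shCtrl and 0 in every shYthdf2 library. Kbtbd4, which overlaps 4.04% of the Ndufs3 exon bases on the opposite strand, had 0 counts in every library. Whether these values reflect the cells or the counting of reads was not tested. Uqcrc1, a core protein of complex III, had 2.85 ± 2.01 CPM per kb, against 36.5 ± 6.96 for its partner Uqcrc2. Filtering on low counts left 76 of the 82 genes for testing, and removed Ndufs3, Ndufa4l2, Cox7a1, Cox7b2, Cox8b and Cox8c. Cox6a2 and Cox6b2 stayed in with fewer than 10 counts in a library.

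The main variation of the subunit genes ran between library 2 and the others, in both groups alike. In 72 of the 76 tested genes library 2 was the highest of the 3 in shCtrl and also the highest of the 3 in shYthdf2, which was the case for 28.7% of all genes tested. The median ratio of library 2 to the mean of libraries 1 and 4 was 1.42 in shCtrl and 1.42 in shYthdf2, against 1.00 over all genes tested in each group. Atp5b illustrates it, with 15902, 21951 and 16077 normalized counts in shCtrl libraries 1, 2 and 4, and 13274, 19288 and 13529 in shYthdf2. The difference between libraries was larger than that between groups, and within each number the shYthdf2 library was the lower one. Markers of 5 other sets of cells also had their highest sum in library 2 of each group. These were progenitors, GABAergic interneurons, unipolar brush cells, oligodendrocytes, and vascular cells with fibroblasts. Those of vascular cells and fibroblasts summed to 2163, 5493 and 2108 normalized counts in shCtrl and 2645, 6798 and 2762 in shYthdf2. Those of oligodendrocytes summed to 4947, 16314 and 4749 and to 12754, 17263 and 13118. Single markers did not all follow these sums. In the set of vascular cells and fibroblasts, Col1a1 had 1106, 2808 and 1096 normalized counts in shCtrl and 1175, 3150 and 1216 in shYthdf2. Pecam1 of the same set had 24.0, 32.0 and 24.2 in shCtrl and 31.4, 23.3 and 34.0 in shYthdf2. Slc6a5 of interneurons had 797, 255 and 754 normalized counts in shCtrl and 457, 267 and 449 in shYthdf2. Eomes of unipolar brush cells had 1753, 1176 and 1702 in shCtrl and 360, 642 and 326 in shYthdf2. Of the granule cell markers, Gabra6, Cbln1 and Etv1 were highest in library 2 of each group, and Pax6, Barhl1 and Reln were lowest there. Gabra6 had 432, 1210 and 408 normalized counts in shCtrl and 518, 1358 and 552 in shYthdf2. Pax6 had 11786, 9686 and 11836 against 11251, 8805 and 11684. The part of any of these cells in the result was not tested.

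As a share of all deposited counts, the 82 genes took 0.611%, 0.826% and 0.615% of shCtrl libraries 1, 2 and 4 and 0.553%, 0.767% and 0.552% of the shYthdf2 libraries. The means were 0.684 ± 0.123% and 0.624 ± 0.124% (SD, n = 3), so the groups overlapped and the difference of the means was smaller than the SD of either group. Within each number, the shYthdf2 share was 0.905, 0.929 and 0.898 of the shCtrl share. Complex V took the largest part of the counts, 0.261% to 0.358% in shCtrl, and complex II the smallest, 0.0374% to 0.0459%. In all 5 complexes and in all 3 pairs the shYthdf2 share was the lower, with ratios from 0.876 (complex III, pair 1) to 0.993 (complex II, pair 2). In bulk libraries, fewer cells of a type and less RNA per cell cannot be told apart.

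**Figure D2:**
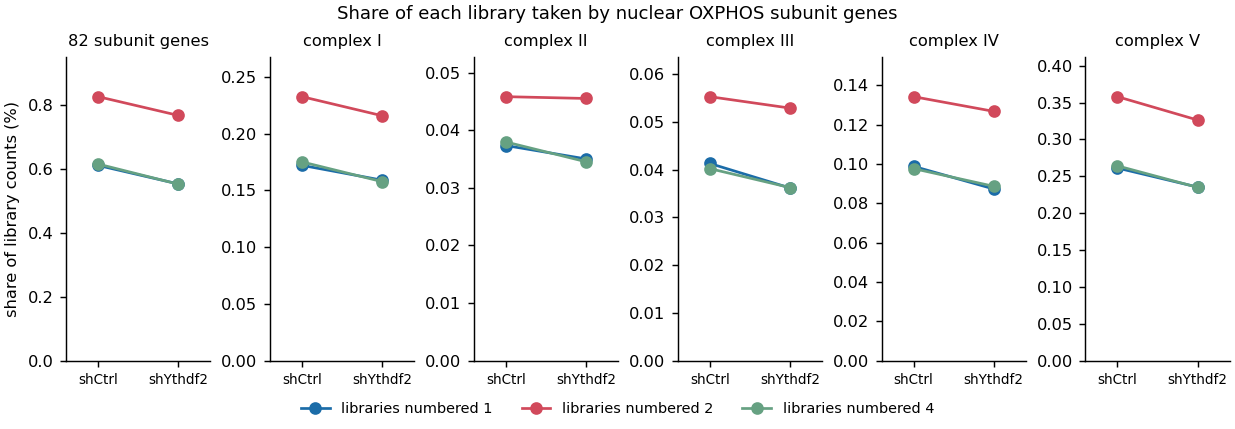
Share of the deposited counts of each library, in percent, taken by all 82 subunit genes and by each complex; lines join libraries with the same number and each panel has its own axis from 0. Every line falls from shCtrl to shYthdf2, and libraries numbered 2 lie above the others in both groups.

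The comparison of shYthdf2 with shCtrl asks whether the transcripts of the respiratory chain change when YTHDF2 is reduced. In the edgeR test over all 17214 genes with p-values adjusted by the Benjamini-Hochberg method, 0 of the 76 subunit genes passed an adjusted p of 0.05, where 0.604% of all genes passed and 0.36% passed as lower. At an unadjusted p under 0.05 there were 5, against 20.1% of all genes: Ndufa10, Ndufv1, Atp5d and Atp5l were lower in shYthdf2 and Cox6b2 was higher. These were also the tested subunit genes whose groups did not overlap, while 26% of all genes had groups that did not overlap. Cox6b2 passed the low-count filter through its shYthdf2 libraries, where it was high. Its place among the 5 thus depends in part on that filter. The smallest adjusted p was 0.124 (Atp5d). With the library number as a block, 0 passed as well (1.35% of all genes, 0.819% as lower), the smallest adjusted p was 0.0568, and 32 of the 76 had an unadjusted p under 0.05, 31 of them lower in shYthdf2. The background of that fit was 31.6%, and 16.3% for lower genes.

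The directions were nevertheless uneven. The fitted log2 fold change was below 0 in 63 of the 76 genes, against 49.2% of all genes tested, and its median was −0.17, with 0.01 over all genes. The medians were −0.18 for complex I, −0.17 for complex II, −0.16 for complex III, −0.15 for complex IV and −0.12 for complex V. These values are small beside the SD of the library medians within a group, 0.28 on the same log2 scale. That SD includes the difference between library numbers, which was alike in the groups and largely drops out within pairs of the same number. It therefore does not measure the spread of the paired differences. Within the pairs of the same number the medians were −0.13, −0.17 and −0.16, and 57, 68 and 57 of the 76 genes were lower in shYthdf2. Lower in all 3 pairs were 50 of them, against 26.9% of all genes tested, and higher in all 3 pairs were 3, against 27%. These counts are a description of genes that share libraries, and carry no test.

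Since library 2 was high in both groups, the median depended on whether both groups kept it. With both libraries numbered 2 left out, the median was −0.16 and 58 of 77 genes were lower, and 46 passed the adjusted threshold, 40 lower and 6 higher. Of all genes, 52.7% passed in that fit, which rests on 2 libraries a group that lie close to each other, and 27% passed as lower. Without shCtrl library 2 alone the median was 0.01, 37 of 77 genes were lower, and 1 gene passed, Ndufv3, which was higher. Without shYthdf2 library 2 alone it was −0.35, 72 genes were lower, and 4 passed, Ndufa12, Ndufs7, Ndufv1 and Atp5d, all lower. Of all genes 18.3% passed without shCtrl library 2 (8.84% as lower) and 4.7% without shYthdf2 library 2 (2.82% as lower). The median was −0.26 without shCtrl library 1, −0.25 without shCtrl library 4, −0.10 without shYthdf2 library 1 and −0.09 without shYthdf2 library 4, with 0 genes passing in each. With libraries 1 and 4 of each group summed, an alternative chosen after seeing the data, it was −0.17 with 67 of 78 genes lower and edgeR called 0 subunit genes and 0 of 18488 genes, with 0 and 937 (5.07%) at an unadjusted p under 0.05.

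**Figure D3:**
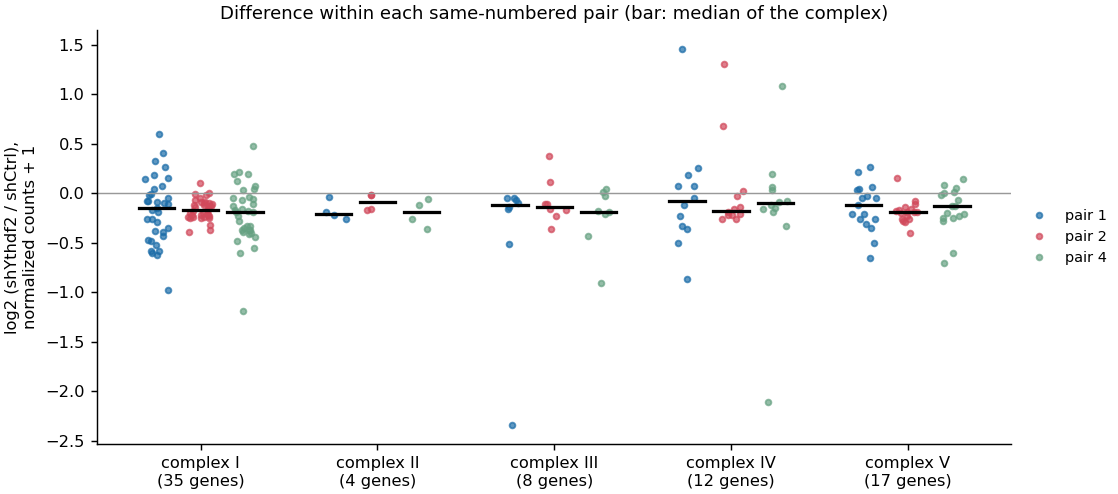
Log2 difference of normalized counts (plus 1) between the shYthdf2 and the shCtrl library of the same number, for the 76 tested genes by complex; each point is a gene and bars are medians. All 15 bars lie below 0, and the genes of pair 2 lie closer together (SD 0.23) than those of pairs 1 (0.42) and 4 (0.37).

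Complex I oxidises NADH, and its 35 tested genes were lower in 28 cases and higher in 7. Ndufa10, an accessory subunit, had 1224, 1373 and 1176 normalized counts in shCtrl and 961, 1046 and 923 in shYthdf2. The 3 shYthdf2 libraries were all below the 3 shCtrl libraries, and the within-pair log2 differences of −0.35, −0.39 and −0.35 were nearly equal (log2 fold change −0.37, SE 0.11, edgeR adjusted p = 0.129). Library 2 stood little above the others in this gene, at 1.14 and 1.11 times their mean. Ndufv1, the core subunit that binds NADH and the flavin, had 1877, 1973 and 1978 in shCtrl and 1257, 1817 and 1349 in shYthdf2. Here too the groups did not overlap, although shYthdf2 library 2 came near the shCtrl level (−0.40, SE 0.15, edgeR adjusted p = 0.194). Ndufb6, an accessory subunit of the membrane arm, gave a log2 fold change of −0.45 (SE 0.22, edgeR adjusted p = 0.300), and 39% of its exon bases overlap Smim27, a gene with no more than 5 counts in any library.

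Ndufa12, an accessory subunit of the matrix arm, had the widest ratio of highest to lowest library among the tested complex I genes, 3.10. It had 656, 913 and 725 normalized counts in shCtrl and 333, 980 and 317 in shYthdf2. Libraries 1 and 4 were at about the same low level in shYthdf2, whereas library 2 was the highest of all 6. The log2 differences within pairs were −0.98, 0.10 and −1.19, and the fit gave −0.49 (SE 0.43, edgeR adjusted p = 0.566). Ndufv3, an accessory subunit beside Ndufv1 that was chosen after its values were seen, had the opposite pattern. It had 907, 1844 and 1007 in shCtrl and 1380, 1711 and 1403 in shYthdf2, with differences of 0.60, −0.11 and 0.48. For both genes, pair 2 gave the other sign from pairs 1 and 4.

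Complex II, which also serves the TCA cycle, has 4 subunits, all nuclear. Each of the 4 genes was lower in all 3 pairs, and 0 reached an unadjusted p under 0.05. Sdhc and Sdhd, the membrane anchors, gave log2 fold changes of −0.20 (SE 0.17) and −0.17 (SE 0.20), and Sdhb, the iron-sulfur subunit, −0.18 (SE 0.18), while Sdha, the flavoprotein, gave −0.04 (SE 0.13). Sdha had 3520, 4222 and 3481 normalized counts in shCtrl and 3423, 4181 and 3349 in shYthdf2. The libraries of the same number were nearly level in this gene, and library 2 was the highest in each group. The edgeR adjusted p-values of the 4 genes were 0.564 to 0.906.

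In complex III, 7 of 8 genes were lower and 1, the Rieske protein gene Uqcrfs1, was higher by 0.03. Uqcrq and Uqcrb, small accessory subunits, gave −0.34 (SE 0.23) and −0.15 (SE 0.12). The lowest fitted log2 fold change over all 6 libraries was that of Uqcrc1, a core protein, −1.06 (SE 0.54, edgeR adjusted p = 0.316). It had 406, 131 and 134 normalized counts in shCtrl and 79.5, 171 and 71.2 in shYthdf2. The spread was wide in both groups: in shCtrl library 1 was 3.02 times library 4, and in shYthdf2 library 2 was 2.27 times the mean of the others. In pair 2 the shYthdf2 library was the higher one. The value was −0.31 without shCtrl library 1 and −1.87 without both libraries numbered 2. Uqcr11 was level, with 757, 1324 and 761 against 732, 1229 and 785 (−0.05, SE 0.28).

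Complex IV, cytochrome c oxidase, has tissue isoforms for several small subunits, and 12 of its 16 genes were tested, 9 lower and 3 higher. Cox6a1 had 6684, 7941 and 6383 normalized counts in shCtrl and 4716, 7793 and 5085 in shYthdf2, with the pair 2 libraries almost level (−0.26, SE 0.20, edgeR adjusted p = 0.523). Its muscle paralog Cox6a2 had 14.2, 8.72 and 30.8 against 7.32, 14.6 and 6.37, too few counts for a firm value. Cox6b1 had 1372, 2254 and 1371 against 1331, 1975 and 1297 (−0.12, SE 0.25), lower in each pair. Cox6b2, its testis paralog, had 6.21, 15.5 and 11.0 in shCtrl and 18.8, 39.8 and 24.4 in shYthdf2. The groups did not overlap, all 3 pairs were higher by 1.08 to 1.46 on the log2 scale, and the fit gave 1.35 (SE 0.46, edgeR adjusted p = 0.164). Cox6b2 passed the low-count filter through its shYthdf2 libraries.

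The other isoform sets of complex IV differed little. Cox7a2 had 1063, 1874 and 1210 normalized counts in shCtrl and 1210, 1608 and 1143 in shYthdf2, with a log2 fold change of −0.07 (SE 0.23), and Cox7a2l gave 0.04 (SE 0.26). The muscle form Cox7a1 stayed at 6.60 to 15.1 against 3.88 to 12.6. Cox7b gave 0.07 (SE 0.19) and its testis paralog Cox7b2 had 0 or 1 deposited counts in each library. Cox8a had 2840, 4073 and 2712 against 2269, 3497 and 2439, lower in each pair (−0.23, SE 0.22), and its muscle form Cox8b had 0 counts in shCtrl and 2, 1 and 2 in shYthdf2. The direction of Cox7a2, Cox7a2l and Cox7b turned in at least 1 fit that left out libraries. Ndufa4 was level, with 2295, 3883 and 2356 normalized counts against 2369, 3382 and 2486, and its paralog Ndufa4l2 had 4.40 to 10.7 against 8.50 to 15.5.

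In complex V, 15 of 17 genes were lower and 2 were higher. Atp5d, the δ subunit of the central stalk, had 2656, 2661 and 2528 normalized counts in shCtrl and 1685, 2271 and 1671 in shYthdf2. The groups did not overlap, and unlike most subunit genes it showed no excess of library 2 in shCtrl, where its ratio to the others was 1.03, against 1.35 in shYthdf2. The fit gave −0.48 (SE 0.14) with the smallest edgeR adjusted p of all subunit genes, 0.124. DESeq2 gave an adjusted p of 0.0464 and called it as the sole subunit gene, where it called 8.5% of all genes and 5.01% as lower. Over the alternatives its adjusted p ranged from 3.23e-09 to 0.999. Its exons overlap those of Cbarp on the opposite strand over 3.53% of their bases. Cbarp had up to 11022 counts in a library, and whether reads were counted by strand is not given in the sources used here.

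Atp5l, the g subunit of the membrane part, had 486, 486 and 430 normalized counts in shCtrl and 382, 401 and 361 in shYthdf2. The groups did not overlap and the pairs differed by −0.35, −0.28 and −0.25 (−0.29, SE 0.12, edgeR adjusted p = 0.228). The α and β subunits were lower in every pair, with log2 differences of −0.21, −0.18 and −0.21 for Atp5a1 and −0.26, −0.19 and −0.25 for Atp5b. Their groups overlapped because library 2 was high in both. The 3 genes for the c subunit, which differ in their targeting sequence but give the same ring protein, had unequal levels. Atp5g3, the most abundant at 85.9 CPM per kb, gave −0.03 (SE 0.18), Atp5g2 at 37.5 gave −0.10 (SE 0.24), and Atp5g1 at 10.6 gave −0.46 (SE 0.21, edgeR adjusted p = 0.276). Atp5g1 had 893, 1147 and 928 normalized counts in shCtrl and 629, 958 and 571 in shYthdf2, lower in each pair. The sign of Atp5g3 turned without a normalization factor and in other alternatives, and the differences between the 3 genes were not tested.

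**Figure D4:**
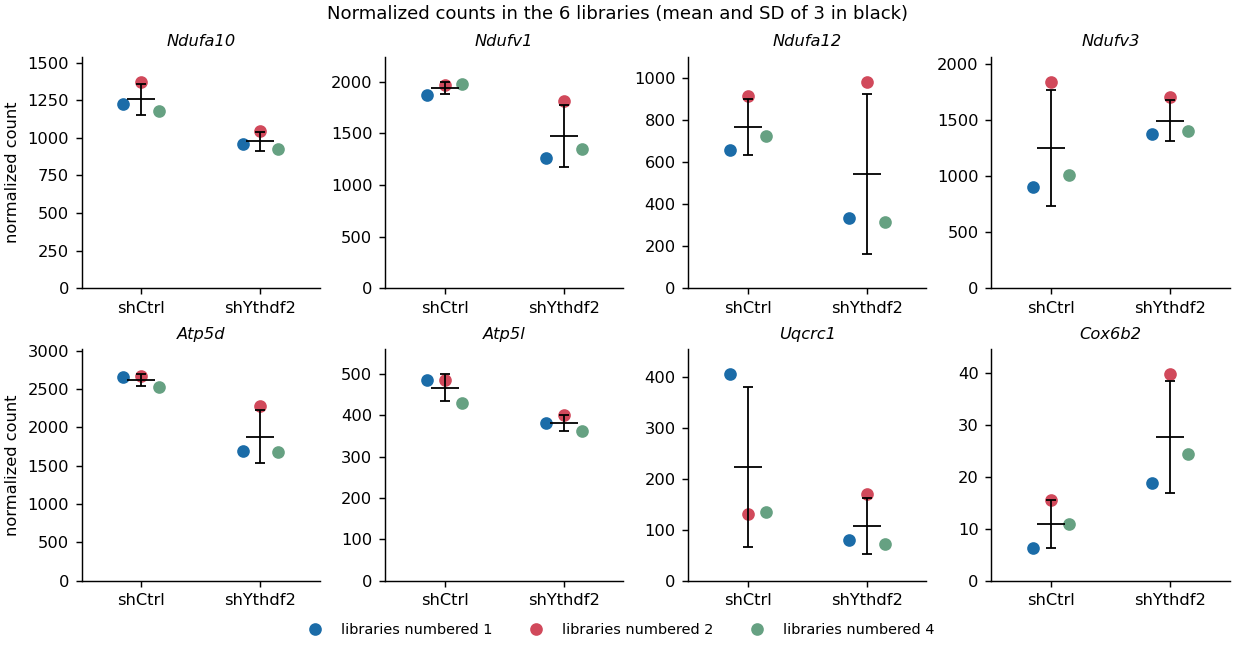
Normalized counts of 8 subunit genes in the 6 libraries, with a linear axis from 0 for each gene; coloured points are libraries by number, black marks the mean and SD of 3. Ndufa10, Ndufv1, Atp5d, Atp5l and Cox6b2 have groups that do not overlap, whereas in Ndufa12, Ndufv3 and Uqcrc1 the groups overlap. Cox6b2 passed the low-count filter through its shYthdf2 libraries.

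The genes around the respiratory chain were taken from lists of the same pathway, and 0 genes of any list passed the adjusted threshold in the edgeR test. The 3 tested subunits outside the prefixes were all lower, with log2 fold changes of −0.27 for Cyc1 (cytochrome c1, SE 0.13), −0.22 for Cox4i1 (SE 0.17) and −0.03 for Ndufab1 (SE 0.12). Of the 13 protein-coding genes of the mitochondrial genome 7 were higher and 6 lower (median 0.06), with mt-Nd2 at 0.33 (SE 0.11, edgeR adjusted p = 0.163). Assembly factors were mixed, with 25 of 42 lower and a median log2 fold change of −0.05. The gene with the smallest p among them was the complex III factor Uqcc1, with 716, 861 and 750 normalized counts in shCtrl and 544, 602 and 556 in shYthdf2 (−0.45, SE 0.12, edgeR adjusted p = 0.105). Of 14 electron carrier and import genes 9 were lower (median −0.16), and Coq5, a methyltransferase of ubiquinone synthesis, gave −0.59 (SE 0.13, edgeR adjusted p = 0.0748). Of 17 TCA cycle genes 14 were lower (median −0.15), with Idh3b at −0.33 (SE 0.09, edgeR adjusted p = 0.115).

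The 12 regulators of mitochondrial biogenesis were split evenly, 6 higher and 6 lower, with a median of −0.02. The gene with the smallest edgeR p in this list was Gabpb1, which encodes a subunit of the GABP factor. Gabpb1 had 542, 556 and 506 normalized counts in shCtrl and 693, 717 and 733 in shYthdf2. Its groups did not overlap (0.42, SE 0.10, edgeR adjusted p = 0.0963). Nrf1 gave −0.10 (SE 0.11) and Yy1 −0.10 (SE 0.09), both chosen for the motifs above.

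Lower fitted values were also common in other abundant gene classes. Of 77 cytosolic ribosome genes 70 were lower (median −0.22) and 62 were lower in all 3 pairs. Of 77 mitochondrial ribosome genes 55 were lower (median −0.15), and of 16 glycolysis genes 13 (median −0.28). The genes with the smallest p in these lists were Rpl22l1 at −0.74 (SE 0.21, edgeR adjusted p = 0.119), Mrpl4 at −0.58 (SE 0.10, edgeR adjusted p = 0.0527, 0.0496 with the library number as a block) and Aldoa at −0.64 (SE 0.19, edgeR adjusted p = 0.131). The ratio of library 2 to the others was also above 1 in these lists, for example 1.34 in shCtrl and 1.47 in shYthdf2 for cytosolic ribosome genes. Whether the lists differ from each other was not tested.

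**Figure D5:**
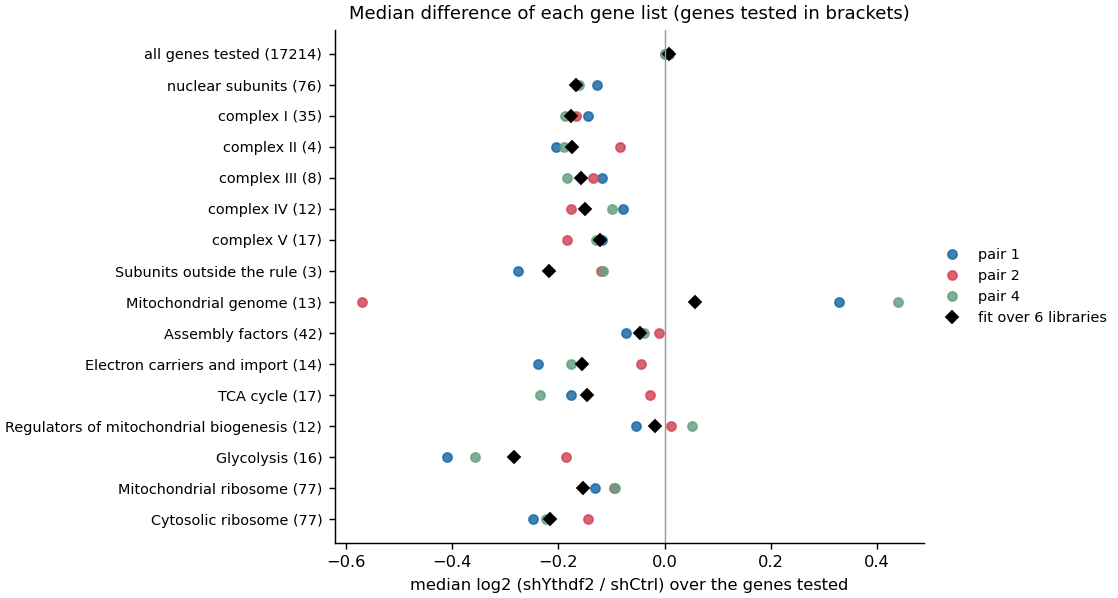
Median log2 difference between shYthdf2 and shCtrl for all genes tested, the nuclear subunits, each complex and the pathway lists; coloured points are the 3 same-numbered pairs and black diamonds the fit over 6 libraries. All genes lie at 0.01, the complexes between −0.18 and −0.12, and the mitochondrial genome list has pairs on both sides of 0.

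Beside these values, markers of other cells differed between the same libraries. The summed normalized counts of the progenitor markers were 798 to 1046 in shCtrl and 1029 to 1139 in shYthdf2, those of astrocyte markers 4672 to 10521 and 8735 to 9332, and those of oligodendrocyte markers 4749 to 16314 and 12754 to 17263. Microglia markers summed to 91.3 to 360 and 205 to 440. Markers of vascular cells and fibroblasts summed to 2108 to 5493 and 2645 to 6798, with the endothelial marker Cldn5 at 0 in 5 of 6 libraries. For GABAergic interneurons 4 of 5 markers were higher, with sums of 6328 to 6919 and 7571 to 9151, and for Purkinje cells and unipolar brush cells 4 of 5 and 3 of 4 were lower, with sums of 931 to 978 and 737 to 1088, and of 10145 to 12055 and 10781 to 11562. Their part in the lower values of the subunit genes was not tested.

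The subunit genes share a compact structure. Their median exon length was 1532 bases, against 4012 over all genes tested, and their longest transcripts had a median of 998 bases against 3149. They lie on 19 different chromosomes. The log2 fold change was compared with the GC content of the longest transcript. The Spearman correlation with that content was −0.32 across the 76 tested genes and −0.27 across all genes tested. With the length of the longest transcript it was −0.02 and 0.09. These are correlations across genes of the same libraries, which are not independent replicates. Exons of other genes covered over 20% of the exon bases in 3 subunit genes, Ndufb6 (Smim27), Ndufa13 (Tssk6) and Atp5o (Gm15976 and others). Smim27, Tssk6 and Gm15976 had at most 5, 36 and 8 counts in a library. Atp5o overlaps 3 genes, of which Gm15976 has the largest overlap, and the counts of the others are not given.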

How the data were processed

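The deposited table holds counts per gene, as whole numbers without normalization, which the authors made from reads of cultured GCs. The methods of the study name mapping to GRCm38 with HISAT and TopHat2 and counting with HTSeq, whereas the submitters' processing notes name Bowtie 0.12.2 and mm9. Which is right was not settled, and no coordinates of the table are used. The test was edgeR 4.0.16 run in R 4.3.3 (filterByExpr with a minimum count of 10 and a minimum total of 15, TMM, quasi-likelihood test), with p-values adjusted by the Benjamini-Hochberg method over 17214 genes. Normalized counts are TMM-normalized at a common library size. DESeq2 1.42.0 and limma-voom (limma 3.58.1) were alternatives. The fits were tested on simulated data. The libraries held 17246821 to 21546595 counts, and SDs and intervals cover differences between these libraries only. Deviations from the group means correlated at 0.25, 0.36 and 0.30 between libraries numbered 1, 2 and 4 of the 2 groups. They correlated at 0.15 between shCtrl library 4 and shYthdf2 library 1, and at 0.12 between shCtrl library 1 and shYthdf2 library 4. Library 2 with another number gave −0.31 to −0.25. The deviations within a group sum to 0 for each gene, so these negative values are not separate support for the pairing. By the positive values, numbers 1 and 4 were less clearly told apart than number 2. The numbers, which are in the library names, were treated as pairs and tried as a block. Genes named were, per complex, the 3 with the smallest p, the 2 with the largest change and the most abundant, the paralog sets, those removed by the filter, and 1 gene per pathway list; others were chosen after their values were seen. The members and lists were chosen with earlier results of these data known. A withheld item is not reported here by name.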

Additional observations from a re-analysis of the deposited data

How the results depend on the processing

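The 26 tested subunit genes that the rule names were refitted under 15 alternatives, 6 of which leave out 1 library. Of 388 values, 340 kept their direction and their side of the threshold, 22 passed it where they had not, and 26 turned in sign. That 0 lost it was fixed in advance, since 0 subunit genes passed in the main fit. Of the 22, 18 came from leaving out both libraries numbered 2, where 52.7% of all genes passed. Another 3 came from leaving out shYthdf2 library 2 (4.7% of all genes) and 1 from DESeq2 (8.5%). The number of genes called was 1321 with DESeq2, 24 with limma-voom, 639 with no filter, 232 with the replicate block, 9186 with both libraries numbered 2 left out, 0 with libraries 1 and 4 summed (an alternative chosen after seeing the data), and 0 to 3239 when single libraries were left out. Subunit genes called were 1 with DESeq2, 46 without both libraries numbered 2, and 0 to 4 without single libraries. Ythdf2 passed the threshold with DESeq2 (log2 fold change −0.58) and without both libraries numbered 2 (−0.32).

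Leaving out single libraries gave medians of −0.345 to 0.0113 for all subunit genes, −0.336 to −0.0271 for complex I, −0.373 to −0.0205 for complex II, −0.340 to 0.0483 for complex III, −0.345 to 0.0377 for complex IV and −0.335 to 0.0741 for complex V. Single genes that turned in sign ranged from −0.408 to 0.00586 (Atp5a1), −0.33 to 0.15 (Atp5g2), −0.17 to 0.17 (Atp5g3), −0.35 to 0.16 (Cox6b1), −0.24 to 0.22 (Cox7a2), −0.22 to 0.32 (Cox7a2l), −0.0420 to 0.310 (Cox7b), −0.23 to 0.24 (Ndufa4), −0.373 to 0.0113 (Sdhd) and −0.32 to 0.27 (Uqcr11). Without both libraries numbered 2, Atp5g3 was at 0.0241, Cox7a2 at 0.0480 and Ndufa4 at 0.0583, and without a normalization factor Atp5g3 was at 0.0109. The cause was not tested. The replicate block gave a median of −0.16 and changed no call of a subunit gene. The median level of the 82 genes in shCtrl was 37.4 CPM per kb of exon and 51.4 per kb of the longest transcript. With 3 libraries a group, of which 2 are close to each other, the median SE of a subunit gene's log2 fold change was 0.21, above the size of the median difference, and 0.0802 with the replicate block, below it. Counts of under 10 in a library limit Cox6a2 and Cox6b2.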

Other observations

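The 13 protein-coding genes of the mitochondrial genome, which encode the partners of the nuclear subunits, fell into 2 sets by position. The 6 genes from mt-Co2 to mt-Nd4l, from position 7013 to 10173 of the GRCm38 mitochondrial genome, differed between libraries by 3.69 to 25.3 times from the lowest to the highest normalized count. The other 7 differed by at least 1.28 times, and at most 2.102 times. For example, mt-Co3 had 21048, 37442 and 3406 normalized counts in shCtrl and 21158, 1657 and 4343 in shYthdf2, and mt-Nd3 had 3111, 5809 and 554 against 4310, 278 and 876. The same libraries were low in both genes, and libraries 1 and 4 of shCtrl, which were close over most genes, differed here by 6.18 times for mt-Co3. By contrast mt-Cytb had 28316, 38967 and 28303 against 44859, 39927 and 45171, and all 7 genes outside the stretch had fitted log2 fold changes above 0, with a median of 0.25, while the nuclear subunit genes had a median of −0.17. Of the 7, mt-Nd2 gave 0.33 (SE 0.11) with the smallest adjusted p of the 13 in edgeR, 0.163. These sets were made after the values were seen.

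Beside Ndufs3 and Uqcrc1, Gapdh of the glycolysis list had low values. It had 383 ± 124 normalized counts in shCtrl (SD, n = 3) where Aldoa had 9109 ± 218. Uqcrc1 varied 3.10-fold and Gapdh 1.95-fold between shCtrl libraries.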
